A study of Drosophila melanogaster with 2 samples.

Results

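The genes described here encode proteins of the mitochondrial ribosome of Drosophila melanogaster, measured in cells sorted from the larval brain with and without RNAi against brat. They were chosen by name: every gene whose deposited symbol starts with mRpL or mRpS followed by a digit, and whose counts in both libraries together sum to at least 20. The rule found 71 genes of the 9142 that reach that sum and of the 14284 in the count tables. No gene with a matching symbol fell below the minimum; the scarcest, mRpS5, had 422 counts in all. By name, 45 belong to the large subunit and 26 to the small one.

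Mitochondrial ribosomes translate the few mRNAs of the mitochondrial genome, which encode core subunits of the respiratory chain and of ATP synthase. Their RNAs come from that genome, while their proteins are encoded in the nucleus, made in the cytosol and imported. Some of these proteins belong to families that bacterial ribosomes also have, and others to families that bacterial ribosomes lack. In larval neuroblasts, the neural stem cells of the fly brain, mitochondrial function is known to affect proliferation and tumour growth. The brat gene encodes a TRIM-NHL protein that represses translation, and its loss turns type II neuroblast lineages into tumours.

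There was 1 polyA RNA-seq library in each group, so differences cannot be checked against replicates and none could be tested. Both crosses carried UAS-dicer2, wor-Gal4, asense-Gal4 (as labelled), UAS-CD8::GFP and tub-Gal80ts, a temperature-sensitive repressor of Gal4. The control had no hairpin and the other group carried brat RNAi (VDRC TID:105054) and gave what is called the RNAi library here. Animals grew at 18 °C until a shift to 29 °C by the 3rd instar, and late 3rd instar brains were taken 24 h afterwards. Type II neuroblasts with their 24 h progeny were sorted on GFP. Whether each driver, as labelled, acts in the type II neuroblasts that were sorted was not checked. The sorted progeny are a mix of cell types whose proportions may differ between libraries.

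Depth was 16566265 gene counts for the control and 15236504 for the RNAi library, and ratios below are of counts divided by median-of-ratios size factors. Intervals in parentheses are 95% exact (Clopper-Pearson) counting intervals; read pairs are not independent molecules, so they cover counting error only. The targeted gene brat was lower in the RNAi library, with 12210 and 6312 counts and a log2 ratio of -0.69 (-0.73 to -0.65). All 8 listed lineage markers were present, from 1236 counts of ase to 29722 of mira, both in the RNAi library. They did not keep their proportions: dpn (0.98 on the log2 scale), insc (0.46), wor (0.44), mira (0.44) and pros (0.18) were higher in the RNAi library and ase (-0.27) and elav (-0.12) lower, while the interval of erm held 0. Of other cell types, the 7 muscle markers summed to 507 counts in the control and 168 in the RNAi library, and all 7 were at least 2-fold lower. The 3 measured fat body markers summed to 138 and 56 counts, a log2 ratio of -1.04, though Fbp1 among them went from 9 to 18 counts. The 5 glial markers summed to 11285 and 9777, a log2 ratio of 0.05 at the size factors used. The 5 hemocyte markers summed to 6401 and 7225, a log2 ratio of 0.44, but their median was 0.09. Hml was at 0.48, Pxn at 0.41 and He at -1.32, while the intervals of srp (0.09) and nimC1 (-0.32) held 0. After the correction for length and level set out below, Hml, Pxn and He were at 0.03, 0.01 and -0.83. What these cells, and the shift among lineage markers, contribute to the values below was not tested.

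Counts of mitochondrial ribosomal mRNAs held 0.330% of gene counts in the control (0.327 to 0.333) and 0.329% in the RNAi library (0.326 to 0.332). At the size factors used for all other ratios, the same summed counts, 54672 and 50125, gave a log2 ratio of 0.14 (0.12 to 0.15), so their direction depends on the scaling. Log2 ratios are of the RNAi library over the control, and their median was 0.04 over the 71 genes and 0.00 over all measured genes. In bulk libraries a difference in RNA per cell cannot be told apart from a difference in the mix of cells.

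Single genes spread on both sides of that median, from -0.56 for mRpS21 to 0.82 for mRpS31. The interval lay above 0 for 23 of the 71 genes, and for 30.7% of all measured genes. It lay below 0 for 15, and for 24.3% of all measured genes. It held 0 for the other 33. At least 1.5-fold higher were 4 genes (mRpS31, mRpS29, mRpL38 and mRpL37), against 5.93% of all measured genes; at least 1.5-fold lower were 0, against 8.32%. No member reached 2-fold in either direction, a size that 1.15% of all measured genes exceeded upwards and 4.48% downwards. The shares with an interval above or below 0 and the share 1.5-fold higher were thus close to those of all measured genes. With scaling by total gene counts, which moved the median of all measured genes by -0.14, the split of 23 higher and 15 lower became 14 higher and 26 lower, against 20.2% and 38.2% of all measured genes. The median of the 71 genes was then -0.10, so its direction depends on the scaling.

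**Figure D1:**
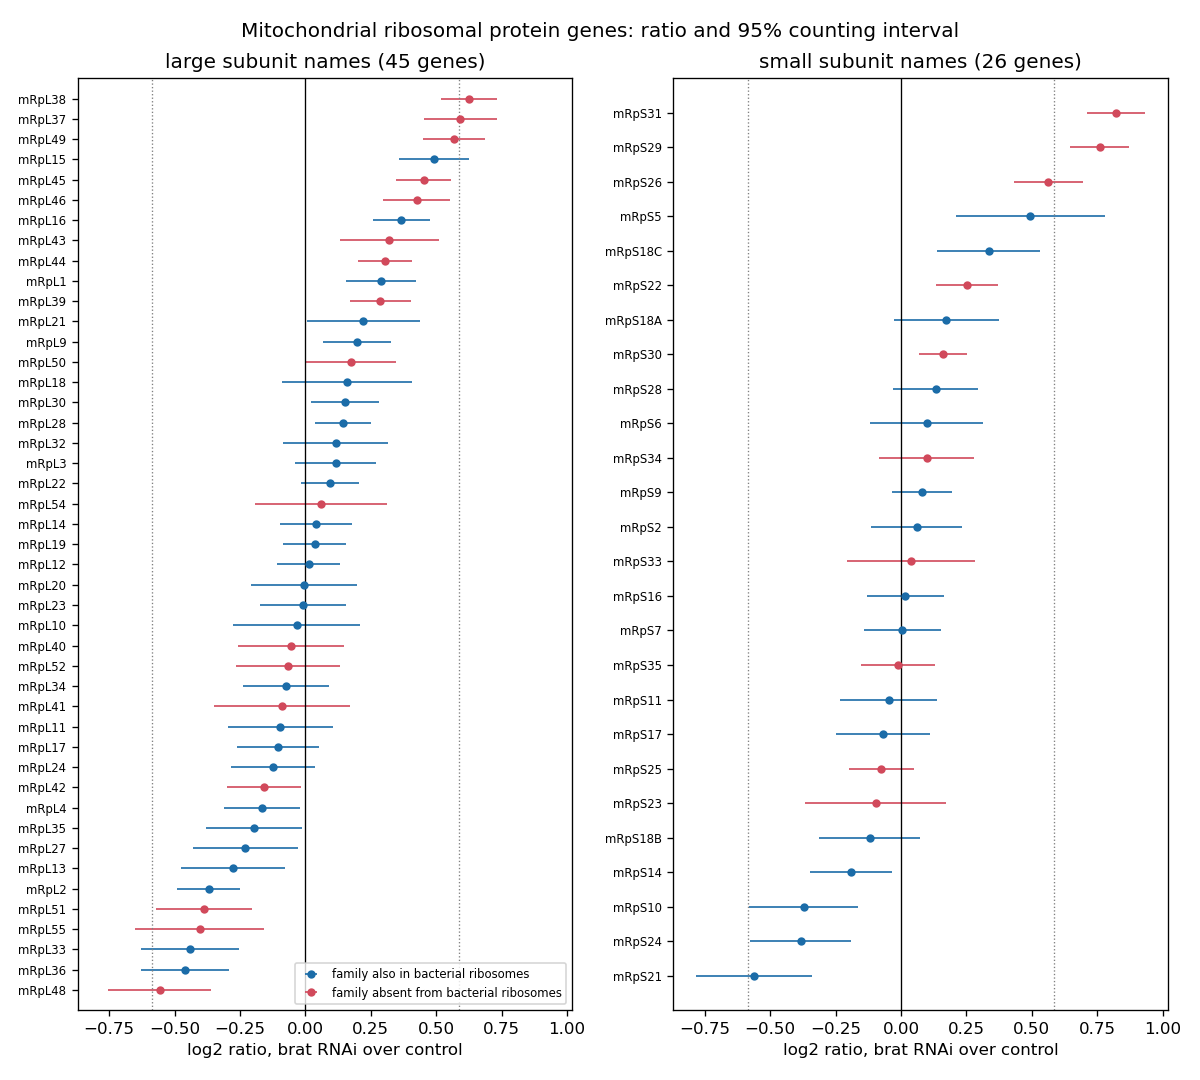
Log2 ratio of brat RNAi over control (x axis) for each of the 71 mitochondrial ribosomal protein genes, large subunit names on the left and small on the right, with 95% exact counting intervals as bars; dotted lines mark 1.5-fold. Values run from -0.56 (mRpS21) to 0.82 (mRpS31). The 4 genes past the upper dotted line all belong to families that bacterial ribosomes lack, as do 27 of the 71 genes.

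The largest ratio belonged to mRpS31, a small subunit protein of a family found only in mitochondria. Its 1103 control counts stood against 1627 in the RNAi library, a log2 ratio of 0.82 (0.71 to 0.93), or 1.77-fold. The next, mRpS29, is the relative of human DAP3, a GTP-binding protein of the small subunit. It had 1106 and 1561 counts, a log2 ratio of 0.76 (0.65 to 0.87). In the current annotation its exons overlap those of qkr58E-2 on the opposite strand, a gene with nearly the same log2 ratio, 0.78. The strand setting of the counting is not given in the sources used here. Reads from the shared stretch may thus be missing from the counts of mRpS29 or added to them, and its value is uncertain. The exons of mRpS31 also overlap an opposite-strand gene, mib1, whose log2 ratio was 0.00.

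Among large subunit genes the highest ratios were those of mRpL38, mRpL37 and mRpL49. In mammalian structures the relative of mRpL38 sits in the central protuberance, the knob of the large subunit that faces the small one. Its counts were 1263 and 1626, a log2 ratio of 0.63 (0.52 to 0.73). The gene mRpL37, whose human counterpart pairs with that of mRpS30, had 745 and 937 counts, a log2 ratio of 0.59 (0.45 to 0.73). The gene mRpL49 had 1073 and 1327, a log2 ratio of 0.57 (0.45 to 0.69). The small subunit gene mRpS26 followed with 860 and 1060 counts and a log2 ratio of 0.56 (0.43 to 0.69). None of mRpL38, mRpL37, mRpL49 and mRpS26 overlaps another annotated gene. The 6 highest ratios all came from families that bacterial ribosomes lack, to which 27 of the 71 genes were assigned after the values were seen.

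The lowest ratios belonged mostly to short genes of both kinds of family. The lowest was that of mRpS21, a small protein related to bacterial S21, with 463 counts in the control and 262 in the RNAi library (-0.56, -0.78 to -0.34). The gene mRpL48, another protein of the central protuberance in mammals, had 582 and 330 counts and a log2 ratio of -0.56 (-0.76 to -0.36). Its exons overlap those of frtz on the opposite strand, which was at 0.27. The genes mRpL36 and mRpL33 encode the mitochondrial forms of very small bacterial ribosomal proteins. Their counts were 777 and 471 for mRpL36, a log2 ratio of -0.46 (-0.63 to -0.29), and 620 and 381 for mRpL33, a log2 ratio of -0.44 (-0.63 to -0.25). The next were mRpL55 at -0.40 (355 and 224 counts) and mRpL51 at -0.39 (624 and 398 counts), both of families that bacterial ribosomes lack.

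Proteins that sit together in the ribosome can be set side by side. Of 4 genes whose mammalian relatives form part of the central protuberance, mRpL38 (0.63) and mRpL46 (0.42, 0.30 to 0.55) were higher in the RNAi library. The interval of mRpL40 held 0 (-0.06, -0.26 to 0.15), and mRpL48 was lower (-0.56). The stalk, which recruits translation factors, is formed by mRpL12 with mRpL10 and mRpL11 beside it. All 3 had intervals that held 0: mRpL12 at 0.01 (-0.11 to 0.13, 1249 and 1051 counts), mRpL10 at -0.03 (315 and 257 counts) and mRpL11 at -0.10 (469 and 366 counts). In flies mRpL12 is known as a gene needed for growth driven by Cyclin D and Cdk4. Around the peptide exit, mRpL22 (0.09), mRpL23 (-0.01) and mRpL24 (-0.12) also had intervals that held 0, while mRpL45, whose human relative binds the inner membrane there, was at 0.45 (0.35 to 0.56). The related genes mRpL37 and mRpS30, the latter a large subunit protein in mammals despite its name, stood at 0.59 and 0.16 (0.07 to 0.25). Mammalian relatives of mRpL44, which resembles RNase III enzymes, and mRpL39, which resembles a tRNA synthetase, are also of the large subunit, and the fly genes were at 0.30 (0.20 to 0.41) and 0.29 (0.17 to 0.40). The values were known when these groupings were chosen.

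The mRpS18 family has 3 genes in the fly, and human mRpS18A is built into the large subunit while the others are in the small one. The ratio of mRpS18C was above 0 (0.34, 0.14 to 0.53, on 420 and 442 counts). The intervals of mRpS18A (0.17, -0.03 to 0.37, on 422 and 397 counts) and mRpS18B (-0.12, -0.31 to 0.07, on 504 and 387 counts) held 0.

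Some mitochondrial ribosomal proteins carry other symbols in the deposited table. The gene tko (technical knockout), which encodes the protein related to bacterial S12 and whose mutants have seizures on mechanical shock, had 353 and 221 counts, a log2 ratio of -0.41 (-0.66 to -0.17). For bonsai, related to bacterial S15, the counts were 1107 and 986 (0.09, -0.03 to 0.22). Rlc1, now mRpL47, had 687 and 584 (0.03, -0.13 to 0.19). A further gene, now mRpL53, is listed at 0 in both libraries, so the 71 genes are most but not all of the ribosome. The 13 genes of the mitochondrial genome in the count tables are listed at 0 as well, so the transcripts these ribosomes translate cannot be described here.

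Levels of the members, as normalised counts per kb of median annotated transcript length, spanned 14.9-fold in the control and 11.1-fold in the RNAi library. In the control they ran from 128 for mRpS5 to 1913 for mRpL34, with a median of 777. In the RNAi library they ran from 181 for mRpS5 to 2007 for mRpL49, with a median of 757. The middle range, from the lower to the upper quartile, spanned 1.65-fold in the control and 1.99-fold in the RNAi library. The full spans rest on mRpS5, as the next lowest gene in both libraries was mRpL10, at 319 and 312. Over large subunit names, which leave mRpS5 out, levels spanned 6.01-fold in the control and 6.44-fold in the RNAi library. For scale, the median level of all measured genes was 234 in the control and 239 in the RNAi library, and that of 86 cytosolic ribosomal protein genes was 42585 and 39532.

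The order of the levels was much the same in both libraries, with a Spearman's rho of 0.87 over the 71 genes, which share the same transcript lengths. Large and small subunit genes had similar median levels per kb, 819 and 738 in the control and 803 and 740 in the RNAi library. Ranked by the mean level of both libraries, the highest large subunit names were mRpL34, mRpL49, mRpL42 and mRpL12, at 1913, 1354, 1643 and 1546 in the control and 1818, 2007, 1472 and 1559 in the RNAi library. In the control alone mRpL33, at 1623, stood above mRpL12, and both mRpL33 and mRpL36, at 1434, stood above mRpL49. By the mean the lowest were mRpL10, mRpL18, mRpL54 and mRpL21, from 319 to 384 in the control and from 312 to 448 in the RNAi library. Of small subunit names, again by the mean, mRpS25 was highest, at 1711 and 1624, followed by mRpS16 (1373 and 1390), mRpS26 (952 and 1407) and mRpS31 (789 and 1395). In the control alone mRpS26 and mRpS31 fell behind mRpS14, at 1145. By the mean the lowest were mRpS5 (128 and 181), mRpS23 (341 and 319), mRpS18B (567 and 522) and mRpS10 (602 and 465). The identifier of mRpS5, like that of mRpS34, was matched to the current annotation by symbol alone, so its length may not be that of the gene model that was counted.

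**Figure D2:**
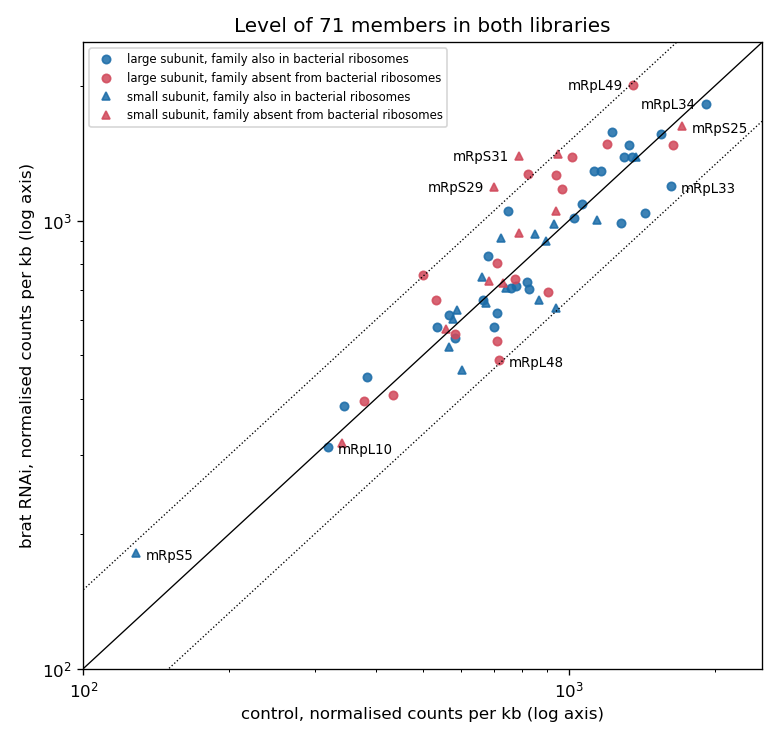
Normalised counts per kb of transcript in the control (x axis, log) and the RNAi library (y axis, log), 1 point per gene, circles for large and triangles for small subunit names. The solid line marks equal levels and the dotted lines 1.5-fold; mRpS5 stands lowest at 128 and 181, and the 4 genes above the upper dotted line are mRpS31, mRpS29, mRpL38 and mRpL37.

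The medians lay further apart between evolutionary kinds of protein than between subunits. By subunit name the medians were 0.04 for large and 0.05 for small, and -0.11 and -0.09 with total count scaling. The 44 genes of families shared with bacteria had a median log2 ratio of 0.01, with 9 intervals above 0 and 11 below. The 27 genes of families that bacterial ribosomes lack had a median of 0.16, with 14 above and 4 below. Of all measured genes, 30.7% lay above 0 and 24.3% below. Intervals narrow with depth, and the median normalised count was 608 for the first kind and 834 for the second. Summed over genes, counts of the first kind were 32086 and 27032, a log2 ratio of 0.01 (-0.01 to 0.04), and of the second kind 22586 and 23093, a log2 ratio of 0.29 (0.27 to 0.32). With total count scaling the medians were -0.13 and 0.02, so the direction of the first flips and the second lies near 0. The kinds were assigned by family number from general knowledge, after the values were seen, and the difference between them could not be tested.

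Transcript length moved with the ratio as well. Members are short, with a median transcript of 739 nt against 2010 nt for all measured genes, and 43 of the 71 fall in the shortest decile. Over the 71 genes Spearman's rho between length and log2 ratio was 0.55, over the 44 genes of bacterial families 0.37 and over the 27 others 0.74. It was 0.40 over 8875 measured genes with a length, so a trend with length is not particular to these genes. With the median of each length decile subtracted, rho was 0.43 over the 71 genes. It was then 0.25 over the bacterial families and 0.62 over the others. Over the 8875 genes it was 0.01, a value near 0 by construction. The subtraction leaves a trend within a decile in place, and 43 of the 71 genes share 1 decile. Whether the members' trend goes beyond that of genes of like length was not tested. The points behind each rho share 1 pair of libraries. Among the members rho with the ratio was 0.44 for the mean normalised count and 0.14 for the level per kb.

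Set in 3 classes by length, the 24 shortest members (327 to 691 nt) had a median log2 ratio of -0.07, the 23 of middle length (696 to 903 nt) 0.01 and the 24 longest (909 to 1954 nt) 0.27. All measured genes within the same lengths had medians of -0.29, -0.20 and -0.10, so in each class the members' median was the higher. Among the shortest, 1 interval lay above 0 (mRpS18C) and 10 below, that is 41.7% below against 57.6% of all measured genes of those lengths (and 5.15% above). In the middle class 7 lay above and 3 below, against 11.3% and 42.0%. Among the longest, 15 lay above and 2 below, against 16.8% and 33.0%. The 2 below were mRpL2 (-0.37, -0.49 to -0.25, on 1454 and 939 counts) and mRpL4 (-0.16, -0.31 to -0.02). Among the longest, 11 genes of families that bacteria lack had a median of 0.42 and 13 of bacterial families 0.09. In the middle class the medians were 0.14 for 8 genes and -0.03 for 15, and among the shortest -0.08 for 8 and -0.04 for 16.

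**Figure D3:**
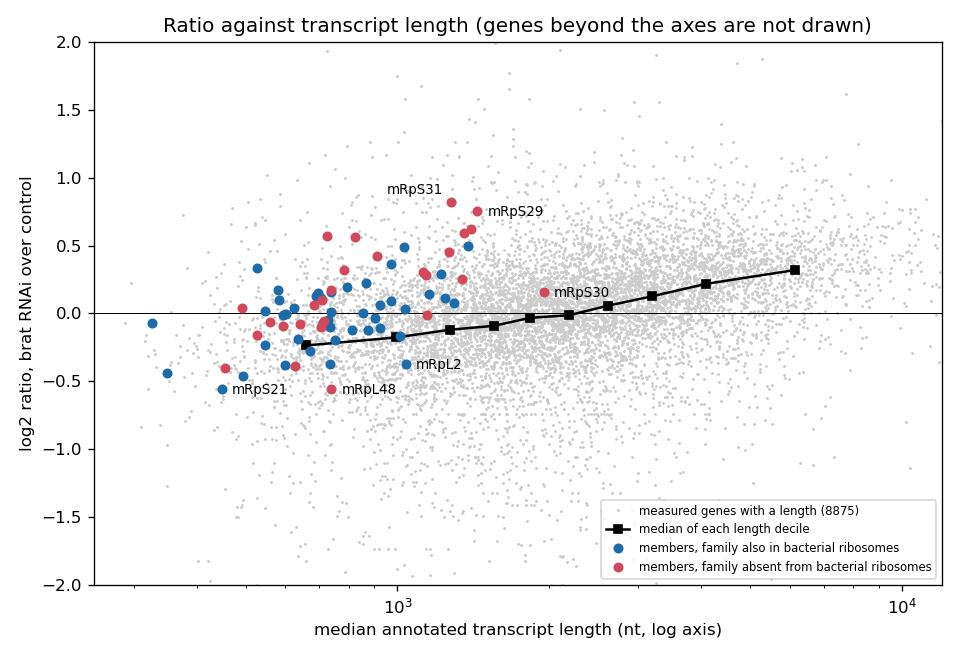
Log2 ratio of brat RNAi over control (y axis) against median annotated transcript length (x axis, log) for 8875 measured genes (grey), the median of each length decile (black squares) and the 71 members (coloured by kind of family). Decile medians rise from -0.24 to 0.32, and most members lie above the decile line at their length.

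Ratios were also taken relative to genes of like length and level, by subtracting the median of the length decile and then that of the level decile. Any difference common to genes of the same decile is largely removed with it, while a trend within a decile is not. The members' median was then 0.21, against 0.00 for all measured genes by construction. Of the 71 intervals, 42 lay above 0 and 5 below, against 24.7% and 23.9% of all measured genes so corrected. The large and small subunit medians were 0.20 and 0.21. The median was 0.17 for bacterial families and 0.33 for the others. At the ends, mRpS31 stood at 0.87, mRpS29 at 0.78, mRpS26 at 0.76, mRpL49 at 0.73 and mRpS5 at 0.71, and mRpS21 and mRpL48 both at -0.30. The genes mRpL27, mRpL35, mRpL42 and mRpS14, whose intervals lay below 0, came to lie between 0.014 and 0.036.

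Other gene groups of the mitochondrion and the cytosolic ribosome were set beside the members as counts and medians, for which the background is again 30.7% of all measured genes with an interval above 0 and 24.3% below. The 9 mitochondrial translation factors had a median log2 ratio of 0.28, with 5 intervals above 0 and 0 below. The elongation factor gene EfTuM, with 5135 and 5204 counts, was at 0.28 (0.22 to 0.34), CG6412, for the factor that recycles it, at 0.05, and the release factor gene CG5705 at 0.92 (0.74 to 1.09, on 430 and 677 counts). The 14 mitochondrial tRNA synthetases had a median of 0.25, with 8 above and 0 below. The most abundant were CG31739, for aspartate, at 0.39 and Aats-leu, for leucine, at 0.47.

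Genes for keeping and expressing mitochondrial DNA (12 measured, median 0.32) had 8 intervals above 0 and 2 below. The RNA-binding gene bsf was at 0.85 (0.79 to 0.92), the protease gene Lon at 0.61 and the packaging factor TFAM at 0.38, while mTerf3, a factor linked to mitochondrial translation in flies, was at -0.51 (-0.78 to -0.24) and mtTFB2 at -0.41. Import and folding genes (12 measured, median 0.27) had 7 above and 2 below, with the translocase gene ttm50 at 0.72 and the chaperone genes Hsc70-5 at 0.65 and Hsp60 at 0.43. With total count scaling these 4 medians were between 0.11 and 0.18.

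The 71 measured nuclear genes for oxidative phosphorylation, whose complexes also contain the products of mitochondrial translation, lay mostly below 0. Their median was -0.23, with 3 intervals above 0 and 55 below. The abundant ATP synthase genes blw and ATPsyn-beta were at 0.03 and -0.12, and the 1 gene at least 1.5-fold lower was CG31477, on 17 and 5 counts. The 86 cytosolic ribosomal protein genes had a median of -0.09, with 10 above and 68 below. Their most abundant genes, RpL3 and RpS2, were at 0.04 and 0.09, and the 1 gene at least 1.5-fold lower was RpS5b, a copy known for its germline expression, at -2.08. Both lists are as short in transcript as the members, with medians of 695 and 709 nt, but more abundant. Their median normalised counts were 2277 and 30508, against 613 for the members and 467 for all measured genes. Intervals narrow with depth, so ratios close to 0 can be counted as above or below it. The interval counts of both lists are thus not directly comparable with the shares of all measured genes. The median of all genes in the shortest length decile was itself -0.24. Relative to genes of like length alone, the median was -0.04 for oxidative phosphorylation and 0.13 for cytosolic ribosomal proteins, against 0.24 for the members. With level corrected as well it was -0.13 for oxidative phosphorylation and 0.00 for cytosolic ribosomal proteins, against 0.21 for the members. After it the translation factors, synthetases, DNA upkeep and import genes stood at 0.25, 0.25, 0.28 and 0.26. Whether these lists differ from the members could not be tested with 1 library per group.

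**Figure D4:**
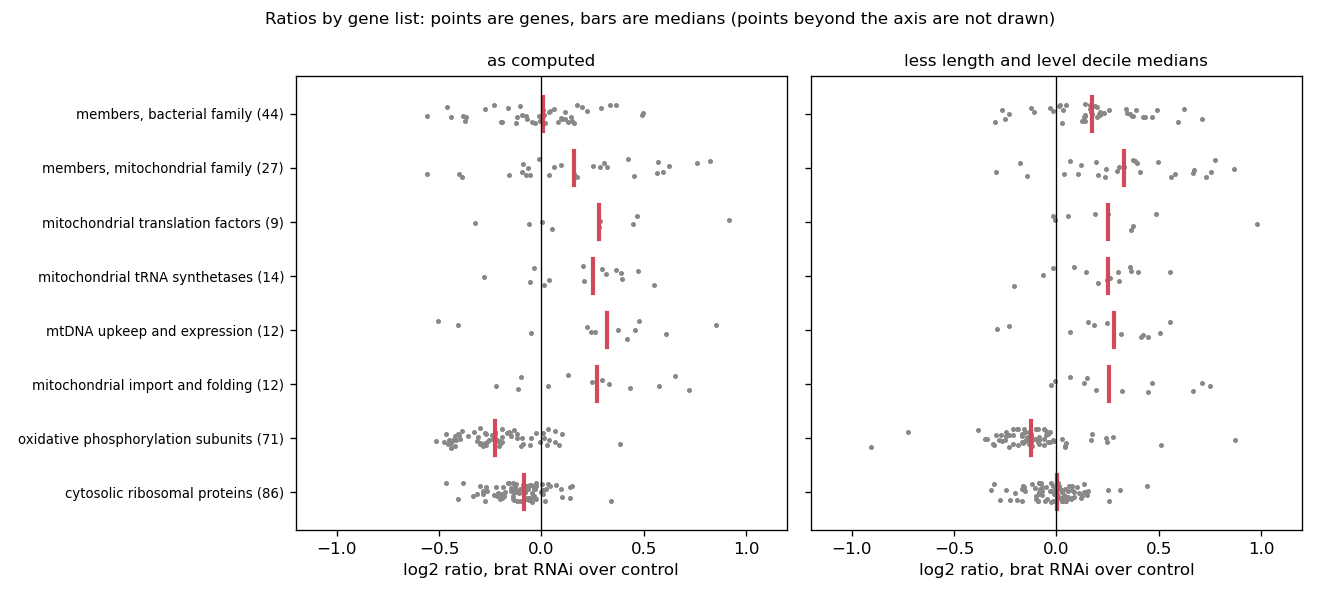
Log2 ratios of brat RNAi over control for measured genes of 8 groups (points, with medians as bars), as computed on the left and relative to genes of like length and level on the right. On the left, medians run from -0.23 for oxidative phosphorylation to 0.32 for mitochondrial DNA upkeep and expression; on the right the 44 and 27 members have medians of 0.17 and 0.33.

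Factors known to act on nuclear genes for mitochondria, or on growth, were mostly higher in the RNAi library. Of 10 intervals, 8 lay above 0 and 0 below, against 30.7% and 24.3% of all measured genes. The median of these factors was 0.33, or 0.19 with total count scaling and 0.14 after the correction for length and level. Their genes are long, with a median transcript of 3186 nt, and all measured genes of that length decile had a median of 0.13. Spargel, the fly PGC-1 coactivator that promotes expression of mitochondrial genes, had 2177 and 3603 counts and a log2 ratio of 0.99 (0.91 to 1.07). The gene Ets97D, for the fly relative of the nuclear respiratory factor GABP alpha, had 495 and 652 (0.66, 0.49 to 0.83). The relative of nuclear respiratory factor NRF-1, ewg, was at 0.34 and the growth regulators dm (Myc), foxo and Tor were at 1.14, 1.16 and 0.31. The stress factor crc was at 0.27 and the promoter-binding factor Dref at 0.11. Both CycD (0.06, -0.10 to 0.21) and Cdk4 (-0.12, -0.31 to 0.08) had intervals that held 0. After the correction for length and level Spargel was at 0.68, Ets97D at 0.66, ewg at 0.13, and Tor and Dref at -0.10 and -0.07.

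Members lie on all large chromosome arms, with 12 on 2L, 11 on 2R, 17 on 3L, 20 on 3R and 11 on X. Their medians were -0.12, 0.02, 0.10, 0.06 and 0.12, where all measured genes of those arms had -0.04, -0.02, 0.00, 0.02 and 0.04. On 2L a single interval lay above 0 (mRpL28, at 0.14) and 5 below (mRpL4, mRpL27, mRpL13, mRpL51 and mRpL48). Of all measured genes, whatever the arm, 30.7% lay above 0 and 24.3% below, and shares for 2L alone were not counted. After the correction for length and level the medians of the arms were all above 0, from 0.09 on 2L to 0.33 on 3L.

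Many members share sequence with a neighbour: 40 of 71 (56.3%) have exons that overlap exons of a gene on the opposite strand in the current annotation, against 35.5% of measured genes. For these genes the counts may include, or lack, pairs from the neighbour, depending on a strand setting that is not given. Of 36 such pairs with a measured neighbour, 9 had log2 ratios within 0.1 of each other. The share among pairs of unrelated genes was not counted, so this number lacks a background and is no sign of shared reads. Besides mRpS29 the 9 included mRpL2 and Ufd1 (-0.37 both, Ufd1 on 1299 and 838 counts) and mRpL43 and sigmar (0.32 and 0.30). Other pairs differed, such as mRpL44 (0.30) and POLDIP2 (-0.31) or mRpL16 (0.37, 0.26 to 0.48) and arm (-0.12). The 30 members without any overlapping gene had a median log2 ratio of 0.04. Of their intervals, 9 lay above 0 and 5 below, against 30.7% and 24.3% of all measured genes, overlapping or not. Among the 30, the median was 0.29 for 12 genes of families that bacteria lack and 0.01 for 18 of bacterial families.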

How the data were processed

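The data were 2 polyA RNA-seq libraries, 1 per group. The authors deposited, for each library, raw pair counts by gene, and also a comparison table. Tools named in the submitters' processing notes, with no roles stated, were DESeq 1.8.3, HTSeq, TopHat 1.4.1 and BWA 0.6.1. Per the file headers the gene identifiers are of FlyBase release 5.44. The authors' comparison table holds base means, which are normalised counts (a signal), a log2 fold change and an adjusted p-value. Those log2 values, turned to brat RNAi over control, equalled the ones computed here within 1e-06 for measured genes. In the authors' deposited table the adjusted p was 1 for 70 of the 71 members and 0.838 for mRpS31; it rests on 1 library against 1.

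The 5 categories of pairs assigned to no gene (22.7% of pairs in the control and 27.2% in the RNAi library) stayed out of sums. Size factors were 1.09 and 0.913. A gene counts as measured from a sum of 20 counts. Folds of 1.5 and 2 were counted where the 95% exact interval excluded 0. No test was possible with 1 library per group. Transcript lengths, current names and overlaps came from the release 6 annotation (BDGP6), and 97.1% of measured genes had a length and counts in both libraries; no coordinates are printed because the releases differ. Corrected ratios subtract medians of 10 length deciles, then of 10 level deciles. Python 3.11.15, scipy 1.17.1 and, for TMM scaling factors alone, edgeR 4.0.16 were used, and the interval code was tested on simulated data.

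The members and lists were chosen with earlier results of these data known, and the kinds of family were assigned after the values were seen. Members named in full were the 6 highest and 6 lowest ratios, all those at least 1.5-fold apart, the 4 highest and 4 lowest levels per kb of each subunit, the mRpS18 family and mRpL12. From the mitochondrial and cytosolic ribosome lists the 2 most abundant genes and up to 3 at least 1.5-fold apart were named, with every regulator and brat. The cell type marker lists, to which the same rule applies, are given mainly as sums. Marker genes, other members, overlapping neighbours, mTerf3 and mtTFB2 were named after their values were seen. Promoter and protein sequences were not analysed here.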

Additional observations from a re-analysis of the deposited data

Results flagged for a closer look

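Read pairs that fell in no annotated gene feature were 26.6% of the RNAi table against 22.0% of the control table. They enter none of the comparisons, and their part in the members' ratios was not tested.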

How the results depend on the processing

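No paired analysis was possible because each group has 1 library, and for the same reason no library could be left out. TMM scaling and other minimum counts (at least 100, or none) kept all 9 values for the members as a group close to those reported. With total gene count scaling, 14 members had intervals above 0 and 26 below, and 2 were at least 1.5-fold higher and 3 lower. The 30 members without an overlapping gene gave 9 above, 5 below and 2 at least 1.5-fold higher, counts that are smaller in part because fewer genes enter. After subtraction of length decile medians, 44 intervals lay above 0 and 5 below, and 9 members were at least 1.5-fold higher. With level deciles as well these were 42, 5 and 9. For 1.5-fold counts after these corrections or total count scaling no share of all measured genes was computed, so they lack a background. Of all measured genes, 28.0% lay above 0 and 22.4% below after correction for length. The median of all members was 0.24 after correction for length and 0.21 after both. For large subunit names it was 0.24 and 0.20, for bacterial families 0.22 and 0.17 and for the others 0.33 and 0.33, and for small subunit names 0.22 after correction for length. Since the correction subtracts a negative median at these lengths, it moves short genes upwards by construction.

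Of members whose interval excluded 0, those that changed sign were mRpL27 (0.0059 after length, 0.030 after both), mRpL35 (0.040 and 0.014), mRpL42 (0.078 and 0.036), mRpS14 (0.045 and 0.018) and, after length alone, mRpL4 (0.012). A further 16 members whose interval held 0 changed sign after each correction, and 15 with total count scaling. The cytosolic ribosomal median changed from -0.09 to 0.13 and 0.0020, and that of the lineage markers from 0.31 to -0.060 after both. That of oxidative phosphorylation moved from -0.23 to -0.04 after length and -0.13 after both, and that of the regulators from 0.33 to 0.14 after both. With member counts from 194 to 2008 in the control, intervals were 0.18 to 0.57 wide on the log2 scale, and differences whose interval holds 0 were not detectable at this depth. The planned description of promoter motifs was not run.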
